A study of Mus musculus with 18 samples.

Results

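Photoreceptors spend much of their ATP on moving ions across their membranes. The 5 genes described here encode parts of that machinery: Atp1b1, Atp1b2 and Atp1b3, the beta subunits of the sodium potassium ATPase, Kcnv2, a subunit of the inner segment potassium channel, and Slc24a2, the cone exchanger of sodium for calcium and potassium. They were chosen by name, out of 54532 genes counted.

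RNA was sequenced from mouse retinal cones sorted on H2BGFP, a green fluorescent histone that a cone-specific AAV vector had brought into their nuclei. All retinas came from WT mice injected at P0. The control retinas were given that reporter alone, and Txnip retinas had in addition received an AAV in which the red opsin promoter drives Txnip, the thioredoxin-interacting protein, so that the added gene is meant for cones. Albino BALB/c mice at P21 gave 6 control and 6 Txnip libraries. C57BL/6J mice at P35 gave 3 of each. Strain and age changed together, and the libraries of the strains also came from separate sequencing projects, so that these 3 cannot be told apart. The labels do not say which retinas shared an animal, and the p-values measure the spread between these libraries only.

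The sodium potassium ATPase is a complex of a catalytic alpha subunit and a glycosylated beta subunit, which brings the complex to the membrane and tunes its affinity for potassium. In darkness, sodium and calcium enter the cone outer segment through the cyclic nucleotide gated channel of Cnga3 and Cngb3. The pump in the inner segment removes the sodium, and potassium leaves through channels that hold Kcnv2, which forms no channel by itself. Slc24a2 removes the calcium from the outer segment with potassium, against an inflow of sodium. Loss of KCNV2 in people causes a cone dystrophy.

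In the annotation of GRCm38, Atp1b1 (ENSMUSG00000026576) lies at chr1:164437109-164458355 on the minus strand and Atp1b2 (ENSMUSG00000041329) at chr11:69599736-69605942 on the minus strand. Atp1b3 (ENSMUSG00000032412) lies at chr9:96332655-96364442 on the minus strand, Kcnv2 (ENSMUSG00000047298) at chr19:27322588-27337179 on the plus strand and Slc24a2 (ENSMUSG00000037996) at chr4:86983124-87230477 on the minus strand. Their exons add up to 3081, 4085, 2389, 5108 and 12217 bases in the same order. The counting did not use strand, and 575 exonic bases of Atp1b1 (18.7%) are shared with Nme7 on the opposite strand, so pairs from these genes cannot be told apart there. Atp1b3 has a processed copy, Gm1848, with 96.4% identity over 805 bases.

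The 2 members that differed most between the strains are shown by the 250 bases upstream of a RefSeq start (GRCm38.p6, a C57BL/6J genome), 5′ to 3′ on the gene's strand. Capitals mark GC boxes (GGGCGG) and CCAAT boxes (CCAAT), searched on both strands. The window of Atp1b1 is chr1:164458356-164458605 and that of Slc24a2, for the first of its 2 listed starts, is chr4:87230541-87230790.
Atp1b1: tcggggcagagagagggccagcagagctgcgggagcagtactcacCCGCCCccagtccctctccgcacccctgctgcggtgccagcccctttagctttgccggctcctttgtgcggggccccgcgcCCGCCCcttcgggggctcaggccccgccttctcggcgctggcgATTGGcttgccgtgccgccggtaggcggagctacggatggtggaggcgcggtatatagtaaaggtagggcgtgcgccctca
Slc24a2: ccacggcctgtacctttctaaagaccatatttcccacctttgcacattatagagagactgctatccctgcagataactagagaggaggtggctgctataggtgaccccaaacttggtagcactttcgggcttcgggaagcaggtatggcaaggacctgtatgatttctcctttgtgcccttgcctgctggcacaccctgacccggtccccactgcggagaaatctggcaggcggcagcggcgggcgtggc
The Atp1b1 window held 2 GC boxes and 1 CCAAT box and was 70.4% G and C, against a median of 52.4% over 32851 windows of the same length. The Slc24a2 window held none of these letters and was 56.0% G and C. The window of its second listed start (chr4:87227964-87228213), not printed, held 1 CCAAT box and 1 TATA box (TATAAA, in 12.4% of all windows) and was 36.8% G and C. Of all windows, 32.7% held a GC box and 33.8% a CCAAT box. The photoreceptor motif core TAATCC, which 6.25% of all windows held, was in neither of the windows printed. RefSeq windows were found for 3 of the 5 members, Atp1b1, Atp1b3 and Slc24a2.

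The libraries held 647712 to 5172156 counted read pairs (median 2886629). The added gene checked the labels: Txnip lay at 1027 to 1414 CPM in the BALB/c Txnip libraries and 821 to 1969 CPM in the C57BL/6J ones, and at 0 to 1.48 CPM in the controls. CPM stands for counts per 1000000 on library sizes scaled by TMM over all 18 libraries. Cone genes led in all groups, with 12 of 12 cone markers detected and a summed level of 43488 to 99932 CPM. Other cells were present too. Summed over all 9 rod markers, 16 libraries lay at 11576 to 17934 CPM, C57BL/6J control replicate 1 had 21674 CPM and C57BL/6J Txnip replicate 2 had 19169 CPM. Sag and Pde6g made up most of this sum in the 16 libraries, at 9816 to 15915 CPM, and were lower in those 2, at 9666 and 8448 CPM. They were left out of the sum after these values were seen. Over the other 7 rod markers, 16 libraries lay at 1327 to 2721 CPM, while the same 2 libraries had 12008 and 10721 CPM. These 2 libraries, the highest by either sum, are called rod-rich. As a share of all counts, without TMM, the 9 rod markers ranked otherwise. They took 2.47% in C57BL/6J control replicate 1, 1.76% in C57BL/6J Txnip replicate 1 and 1.69% in C57BL/6J Txnip replicate 2. Bipolar cell markers summed to 244 and 432 CPM in the 2 rod-rich libraries and to 12.2 to 83.7 CPM in the others. Summed over 6 ganglion cell markers, the BALB/c libraries lay at 372 to 1105 CPM and the C57BL/6J libraries at 28.6 to 103 CPM. The 8 Mueller glia markers summed to 977 to 1288 CPM in BALB/c and to 444 to 1276 CPM in C57BL/6J. Of them, Clu alone held 739 to 1086 CPM in BALB/c. Retinal pigment epithelium markers summed to at most 11.01 CPM.

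Atp1b2 was by far the most abundant beta subunit in the sorted cones. The part of other cells, Mueller glia among them, in its level was not tested. On the scale of CPM per kilobase of exon, Atp1b2 stood at 845 ± 193 (SD, n = 6) in BALB/c control cones, at 670.3 ± 40.02 (n = 6) in BALB/c Txnip cones, at 896 ± 109 (n = 3) in C57BL/6J control cones and at 836 ± 134 (n = 3) in C57BL/6J Txnip cones. By this level it ranked 31st to 39th among 14751 genes in the 4 groups.

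The other beta subunits were lower, and Atp1b4 was close to 0, with 16 pairs in all libraries together. In BALB/c control cones (n = 6), Atp1b2 took 90.8% ± 3.02 (SD) of the 3 beta subunits, Atp1b1 took 8.10% ± 2.96 and Atp1b3 the small remainder.

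Atp1b2 stood highest of the 5 members per kilobase in all 4 groups, and the order below it varied between the groups, mostly among genes with overlapping ranges. In BALB/c control cones, Atp1b2 stood 10.7 times above Kcnv2, the next member, and the ranges were apart. Kcnv2 (78.7 ± 6.94 CPM per kilobase) and Atp1b1 (72.1 ± 20.5) were indistinguishable, with overlapping ranges and Kcnv2 higher in 3 of 6 libraries. Atp1b1 stood 7.03 times above Atp1b3 (10.2 ± 1.93), and Atp1b3 and Slc24a2 (7.96 ± 1.24) overlapped. In BALB/c Txnip cones Atp1b1 stood above Kcnv2 in 4 of 6 libraries, with overlapping ranges. In C57BL/6J control cones, Atp1b2 stood 17.0 times above Kcnv2 (52.8 ± 14.6), and the ranges of the neighbours below it, Kcnv2, Atp1b1, Slc24a2 and Atp1b3, overlapped. In C57BL/6J Txnip cones, Kcnv2 (58.4 ± 13.97) stood 3.16 times above Slc24a2 (18.5 ± 3.61) in 3 of 3 libraries, and Slc24a2 overlapped with Atp1b1, and Atp1b1 with Atp1b3.

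**Figure D1:**
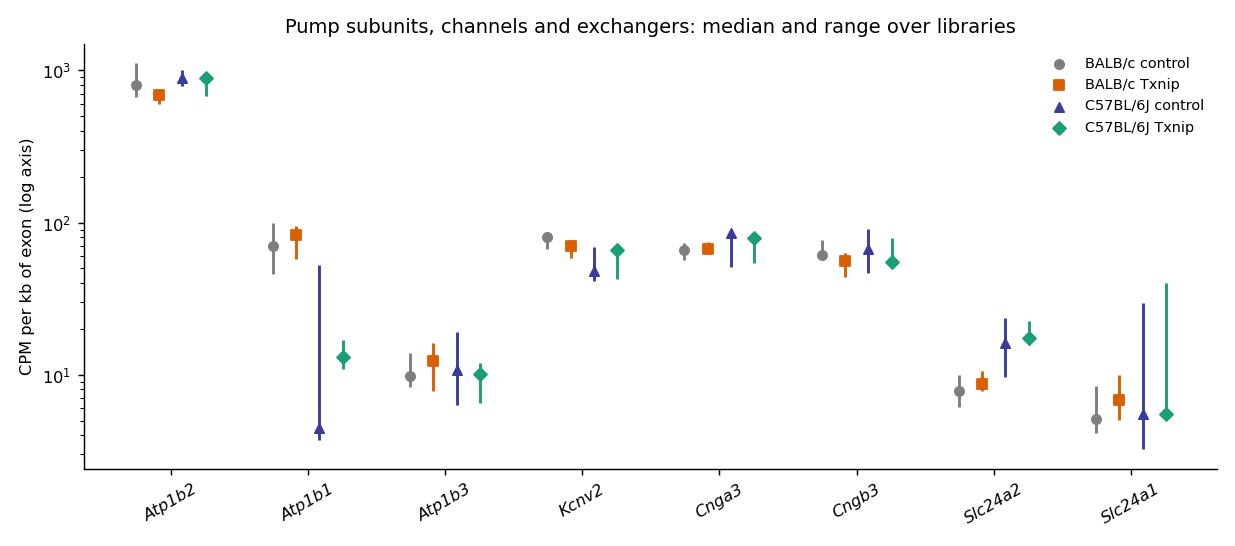
Median (symbol) and range over libraries (line) of the level of pump subunits, channels and exchangers, in CPM per kilobase of exon on a log axis, for the 4 groups. Atp1b2 lies above all other genes shown, and the range of Atp1b1 spans from 3.72 to 52.3 CPM per kilobase in C57BL/6J control cones.

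Cones also held the other parts of the ion circuit. The cone channel subunits Cnga3 and Cngb3 stood at 66.3 ± 6.66 and 62.8 ± 7.35 CPM per kilobase over the 6 BALB/c control libraries, close to Kcnv2. Slc24a1, the exchanger of rods, lay near Slc24a2 in most libraries, at 5.48 ± 1.53 CPM per kilobase in BALB/c control cones.

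Between the strains and ages, Slc24a2 was higher and Atp1b1 lower in P35 C57BL/6J cones, in control and in Txnip libraries alike, and Kcnv2 was lower in control libraries. These differences come from edgeR's quasi-likelihood test in a fit of all 4 groups, with Benjamini-Hochberg adjustment over 14751 genes and a threshold of 0.05. In control cones 3 of the 5 members passed, 1 higher and 2 lower in C57BL/6J. Of all genes tested, 17.5% passed there, 8.03% higher and 9.52% lower. In Txnip cones 2 of the 5 members passed, 1 in each direction, where 17.6% of all genes passed, 8.24% higher and 9.38% lower. All 5 members had passed the filter on low counts. Since bulk RNA was measured, fewer cells of a type and less RNA per cell cannot be told apart in any of these comparisons.

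**Figure D2:**
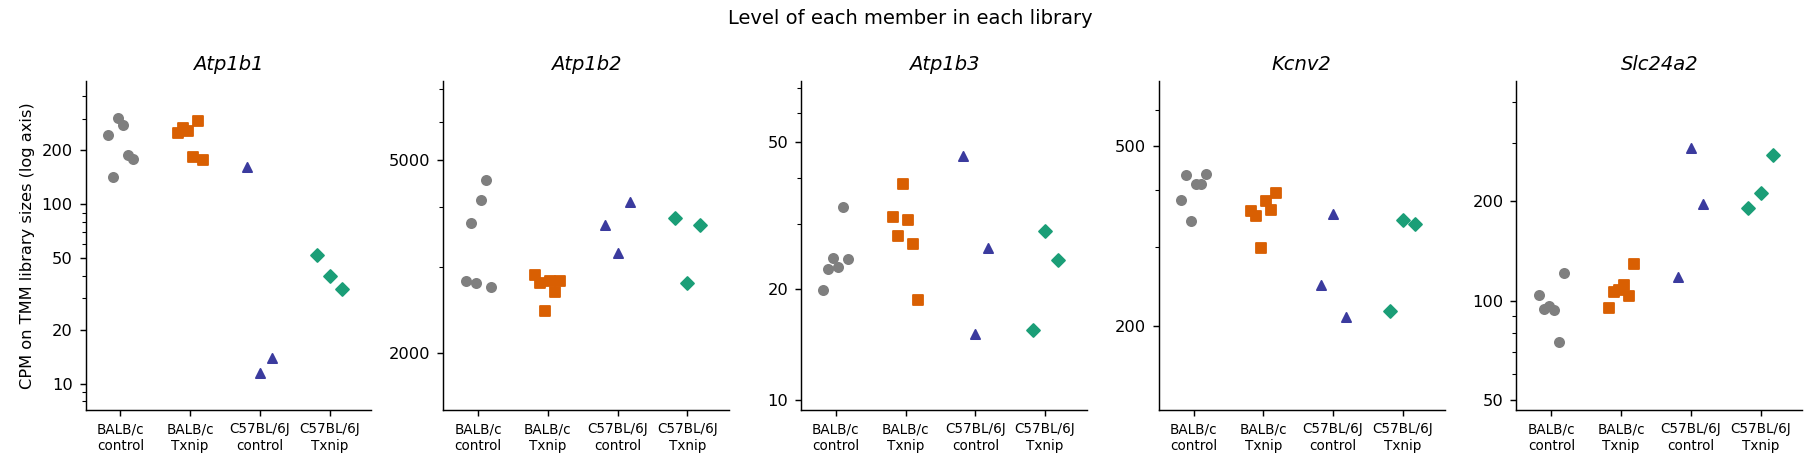
CPM of each member in each library, 1 panel per gene, on log axes with separate scales. Atp1b1 lies at 142 to 304 CPM in the 12 BALB/c libraries and at 11.46 to 161 CPM in the 6 C57BL/6J libraries, while Atp1b2 overlaps between the groups in each of the 4 comparisons made.

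Relative to its mean, Atp1b1 had the widest spread of the members in the control libraries of each strain. Its level in the BALB/c control libraries was 142 CPM at the lowest, 215 at the median and 304 at the highest. The C57BL/6J control libraries had 161, 11.46 and 13.9 CPM for replicates 1 to 3. Thus 2 of 3 C57BL/6J control libraries lay far below every BALB/c library, and the other lay inside their range. Separation of this kind was met by 0 of 5 members in control cones, where 18.6% of all genes did not overlap (8.98% higher, 9.66% lower). The log2 difference was -1.85 ± 0.52 (SE, adjusted p = 0.0172), and without C57BL/6J control replicate 1 it was -4.13. It did not pass without replicate 2 (-1.37, adjusted p = 0.0586) or replicate 3 (-1.36, adjusted p = 0.0921), nor in a fit of these 2 groups alone (adjusted p = 0.0652). In the Txnip libraries the groups did not overlap: 177 to 292 CPM in BALB/c, against 52.1, 40.003 and 33.7 CPM in C57BL/6J. There the log2 difference was -2.51 ± 0.55 (adjusted p = 0.00244). Among all genes, 17.9% did not overlap in this comparison (8.2% higher, 9.73% lower), and 2 of the 5 members, Atp1b1 lower and Slc24a2 higher, were among them.

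The ganglion cell markers, like Atp1b1, were lower in C57BL/6J. In the BALB/c control libraries, the lowest Atp1b1 level (142 CPM, replicate 2) went with the lowest sum of the 6 ganglion cell markers (372 CPM), and the libraries with 277 and 304 CPM had the highest sums (1040.0 and 929 CPM). In C57BL/6J control cones, replicate 1 had 161 CPM of Atp1b1 with 103 CPM of these markers, and the other 2 libraries had 28.6 and 33.5 CPM of the markers. The Txnip libraries did not keep this order throughout. In BALB/c, replicate 6 had the lowest of both (177 and 425 CPM), but replicate 4 had the highest marker sum (1105 CPM) and the second lowest Atp1b1 level (184 CPM). In C57BL/6J, replicate 1 had the highest Atp1b1 level (52.1 CPM) and the lowest marker sum (51.8 CPM), and replicate 2 had the highest sum (84.0 CPM). All 6 markers (Rbpms, Nefl, Sncg, Pou4f1, Slc17a6 and Thy1) were detected in every group. Nefl, a neurofilament of projection neurons, had a median of 425 CPM in BALB/c control cones and 18.9 CPM in C57BL/6J control cones. The amacrine markers, 7 in number, summed to 264 to 518 CPM in BALB/c and 112 to 319 CPM in C57BL/6J. With the log2 ganglion share of each library as a covariate, no member passed in either strain comparison, and the difference of Atp1b1 in control cones became 1.63 (adjusted p = 0.229). The shares of the strains did not overlap, so this fit extrapolates from the spread within groups. Nme7, whose exons overlap those of Atp1b1, was lower too, by -1.02 ± 0.25 in control cones (adjusted p = 0.00651) and by -1.84 ± 0.26 in Txnip cones (adjusted p = 3.02e-05). The part of other cells and of the shared exons in the Atp1b1 difference was not tested.

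**Figure D3:**
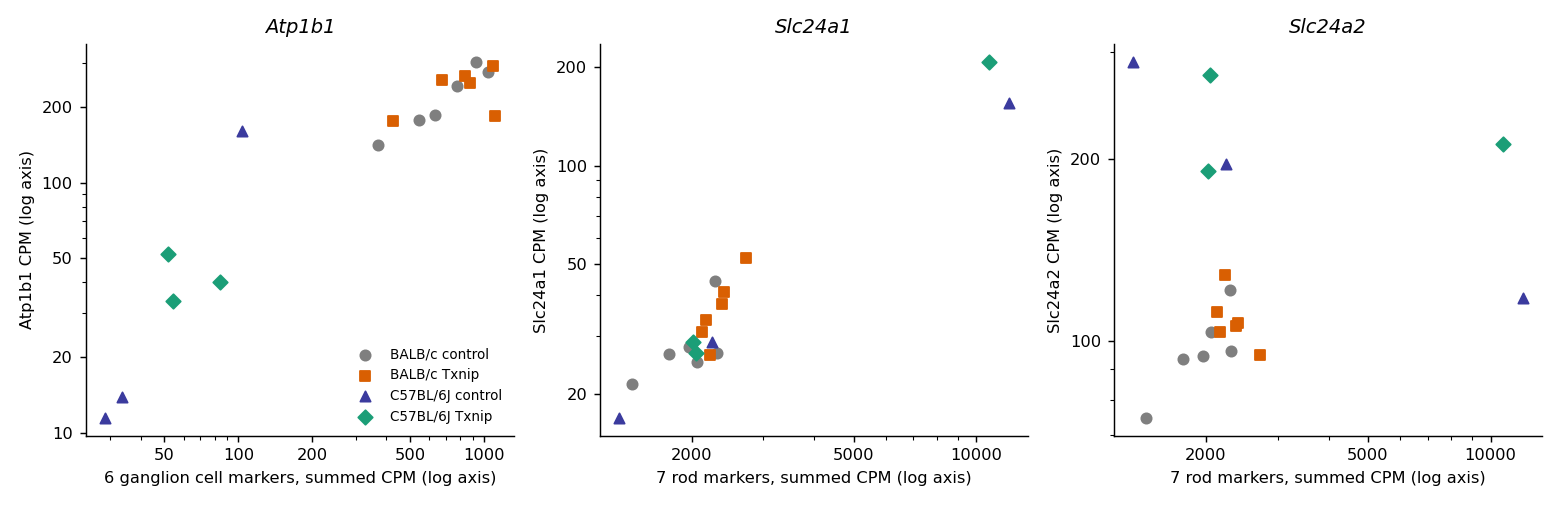
CPM of Atp1b1 against the summed CPM of 6 ganglion cell markers (left), and of Slc24a1 and Slc24a2 against the summed CPM of 7 rod markers (middle, right), 1 symbol per library, log axes. The 2 libraries with 10721 and 12008 CPM of rod markers hold the highest Slc24a1 levels, 208 and 155 CPM in the same order, and do not hold the highest Slc24a2 levels.

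Slc24a2 differed in the other direction. Its BALB/c control libraries had 74.7 CPM at the lowest, 95.4 at the median and 121 at the highest, and the C57BL/6J control libraries had 118, 289 and 196 CPM. The groups overlapped through C57BL/6J control replicate 1 alone, the library rich in rod RNA. The log2 difference was 1.04 ± 0.19 (SE, adjusted p = 0.000555), and 1.30 without the 2 rod-rich libraries. In the Txnip libraries the levels were 94.9 to 129 CPM in BALB/c and 191, 211 and 275 CPM in C57BL/6J, with no overlap and a log2 difference of 1.07 ± 0.19 (adjusted p = 0.000458). Slc24a2 passed in 18 of 18 fits that left out 1 library, in control cones (0.66 to 1.30) and in Txnip cones (0.90 to 1.17). With the ganglion share as a covariate its direction turned, to -0.36 in control (adjusted p = 0.790) and -0.23 in Txnip cones (adjusted p = 0.880), in the same extrapolating fit. Of 12 cone markers, 7 lay above BALB/c without overlap in control cones (8.98% of all genes) and 5 in Txnip cones (8.2%). Among them were Pde6c, with medians of 404 and 2586 CPM in control cones, and Arr3, with 4954 and 8579 CPM. Others did not rise. In control cones Opn1sw had medians of 31949 CPM in BALB/c and 27385 CPM in C57BL/6J, and Thrb 708 and 489 CPM, both with overlapping ranges. The part of the cone marker differences in the Slc24a2 difference was not tested.

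The rod exchanger was high where the rod markers were. Slc24a1 had 155 CPM in C57BL/6J control replicate 1 and 208 CPM in C57BL/6J Txnip replicate 2, against 16.8 to 52.1 CPM in the other 16 libraries. Its strain differences, 1.20 ± 0.55 in control and 1.18 ± 0.55 in Txnip cones, did not pass (adjusted p = 0.141 and 0.149). Per kilobase, Slc24a2 made up 59.6% ± 3.24 of the 2 exchangers over the 6 BALB/c control libraries (mean and SD). In C57BL/6J control cones the share was 24.5% in replicate 1, 88.0% in replicate 2 and 74.4% in replicate 3, and in C57BL/6J Txnip cones 73.9%, 30.2% and 81.6%. Two-sided exact permutation tests of this share gave p = 0.881 for control and 0.619 for Txnip cones between the strains (adjusted p = 0.982 and 0.929, by Benjamini-Hochberg over 12 tests of ratios).

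Kcnv2 was lower in C57BL/6J control cones. The BALB/c control libraries had 341 CPM at the lowest, 412 at the median and 434 at the highest, and the C57BL/6J control libraries had 247, 353 and 209.6 CPM. The C57BL/6J range reached into the BALB/c range through replicate 2. The log2 difference was -0.58 ± 0.17 (SE, adjusted p = 0.0188), and with the ganglion share as a covariate -0.94 (adjusted p = 0.282). It did not pass without C57BL/6J control replicate 1 (-0.53, adjusted p = 0.0662) or replicate 3 (-0.42, adjusted p = 0.149). In Txnip cones the levels were 298 to 394 CPM in BALB/c and 216, 343 and 336 CPM in C57BL/6J, and the log2 difference of -0.26 ± 0.16 did not pass (adjusted p = 0.312).

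**Figure D4:**
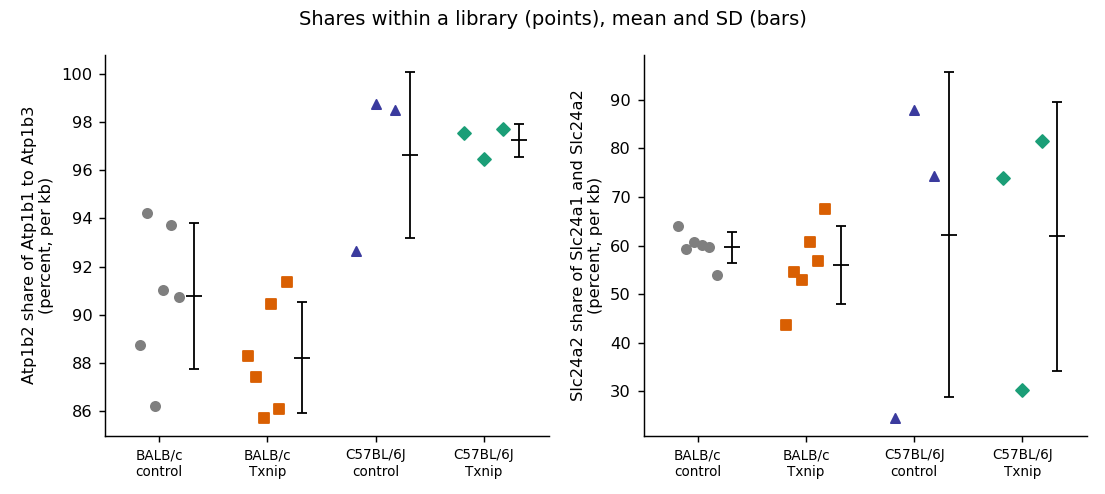
Shares within each library (symbols) with the mean and SD of the group (bars): the share of Atp1b2 among the beta subunits and the share of Slc24a2 among the 2 exchangers, both per kilobase of exon. The share of Atp1b2 is 96.6% ± 3.46 in C57BL/6J control cones and 90.8% ± 3.02 in BALB/c control cones.

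Atp1b2 and Atp1b3 did not pass between the strains. Atp1b2 lay at 2727 to 4549.9 CPM in BALB/c control cones and at 3669, 3213 and 4104 CPM in C57BL/6J control cones, and its log2 difference of 0.09 had a 95% interval of -0.25 to 0.42 (adjusted p = 0.767). In Txnip cones the difference was 0.32, with an interval of -0.01 to 0.65 (adjusted p = 0.184). Atp1b3 had 19.8 to 33.3 CPM in BALB/c control cones and 45.7, 15.0 and 25.8 CPM in C57BL/6J control cones, on 42 to 127 pairs per C57BL/6J library. Its differences were 0.22 (interval -0.34 to 0.78, adjusted p = 0.624) in control cones and -0.40 (interval -0.98 to 0.17, adjusted p = 0.349) in Txnip cones. The share of Atp1b2 among the beta subunits was 96.6% ± 3.46 (SD, n = 3) in C57BL/6J control cones and 97.2% ± 0.67 (n = 3) in C57BL/6J Txnip cones, against 88.2% ± 2.30 (n = 6) in BALB/c Txnip cones. The difference in Txnip cones was 9.03 percentage points without overlap, with an exact permutation p of 0.0238, the smallest that 6 against 3 libraries allow, and an adjusted p of 0.0952. In control cones it was 5.84 points (exact permutation p = 0.0714, adjusted p = 0.171).

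**Figure D5:**
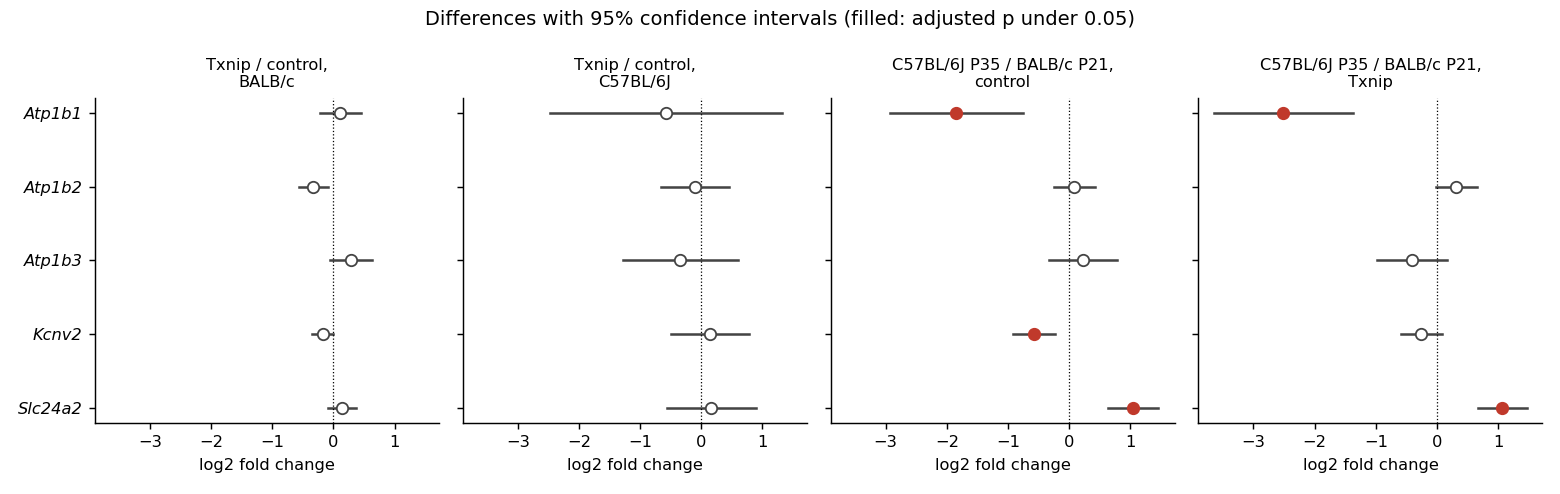
Log2 differences with 95% confidence intervals from edgeR for the members: Txnip against control within each strain, and C57BL/6J at P35 against BALB/c at P21 in control and in Txnip cones. Filled symbols passed an adjusted p of 0.05, which no gene shown did for Txnip.

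Txnip moved none of the 5 members past the threshold. Of 12017 genes tested in the BALB/c libraries 0.0166% passed, and of 12974 in the C57BL/6J libraries 0.0154%, against 0 of 5 members each time. At an unadjusted p under 0.05, 1 member was counted in BALB/c, Atp1b2, among 1372 genes, and 0 in C57BL/6J among 97 genes. DESeq2 called none either, where it called 0.78% of genes in BALB/c and 0.00565% in C57BL/6J, and it gave Atp1b1 no adjusted p in C57BL/6J. With all genes of at least 1 count kept in edgeR, 3.42% of genes were called in BALB/c, Atp1b2 among them (-0.35, adjusted p = 0.00208), and 0.0141% in C57BL/6J, with no member. For no member were the Txnip libraries apart from the controls (0 of 5 in either strain), as 0.624% of all genes were in BALB/c (0.292% higher, 0.332% lower) and 4.33% in C57BL/6J (2.24% higher, 2.09% lower).

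Atp1b2 had the largest value of the members in BALB/c relative to its error. The 6 control libraries had 2815, 3699.7, 2779.9, 4131, 4549.9 and 2727 CPM, and the Txnip libraries had 2898, 2791, 2440.1, 2819, 2671 and 2811 CPM. The Txnip libraries lay close together at the level of the 3 lower controls, and the groups overlapped. The log2 difference was -0.33 ± 0.11 (SE, adjusted p = 0.253 in edgeR). With the rod share without Sag and Pde6g as a covariate it was -0.10. In C57BL/6J the libraries had 3669, 3213 and 4104 CPM in control and 3788, 2789 and 3669 CPM in Txnip cones, a log2 difference of -0.11 with a 95% interval of -0.67 to 0.46. In BALB/c, the amacrine markers summed to 264 to 363 CPM in control and 371 to 518 CPM in Txnip libraries. Bipolar markers summed to 45.6 to 55.2 and 55.5 to 83.7 CPM. The sums of the other marker lists overlapped. The part of other cells in the Atp1b2 value was not tested.

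The other members kept to narrower intervals in BALB/c than in C57BL/6J. In BALB/c the log2 differences were 0.11 (95% interval -0.23 to 0.45) for Atp1b1, 0.28 (-0.06 to 0.62) for Atp1b3, -0.18 (-0.36 to 0.000278) for Kcnv2 and 0.14 (-0.09 to 0.37) for Slc24a2. None of these 4 intervals reached 1 in either direction, which would be a 2-fold change. In C57BL/6J they were -0.58 (-2.47 to 1.32) for Atp1b1, -0.35 (-1.28 to 0.59) for Atp1b3, 0.15 (-0.50 to 0.79) for Kcnv2 and 0.17 (-0.56 to 0.89) for Slc24a2, all with an adjusted p of 1.00. The direction of Atp1b1 rested on control replicate 1: the other 2 controls had 11.46 and 13.9 CPM against 33.7 to 52.1 CPM in the Txnip libraries, and without replicate 1 the difference was 1.72. Ganglion markers were at 28.6 and 33.5 CPM in these 2 controls and at 51.8 to 84.0 CPM in the Txnip libraries.

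Whether Txnip acted differently in the strains was tested as an interaction in the fit of all 4 groups. No member passed, and of all genes 0% passed (0 of 14751 genes in edgeR, 706 at an unadjusted p under 0.05, 0 in DESeq2). The interaction was -0.66 ± 0.69 (SE) for Atp1b1, 0.23 ± 0.23 for Atp1b2, -0.63 ± 0.39 for Atp1b3, 0.32 ± 0.23 for Kcnv2 and 0.02 ± 0.28 for Slc24a2, each with an adjusted p of 1.00 in edgeR. For Atp1b1 it was 1.62 without C57BL/6J control replicate 1.

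The other genes of the ion circuit gave the members their setting. Of 54 listed pump, channel, exchanger and chloride genes, members included, 37 passed the filter on low counts in the fit of all groups. In control cones 5 were higher and 9 lower in C57BL/6J (17.5% of all genes passed), with a median log2 difference of -0.0111 against -0.00116 over all genes. In Txnip cones 4 were higher and 5 lower (17.6% of all genes), with a median of 0.0995 against 0.05. Of these 37 genes, 7 did not pass the filter in both strains taken alone, and such a gene can pass through the group where it is high. Over the other 30, 5 were higher and 6 lower in control cones, and 4 were higher and 4 lower in Txnip cones. With Txnip, none of the 36 genes tested in BALB/c and none of the 32 tested in C57BL/6J passed, and the median log2 differences were 0.11 and 0.05.

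Among the 16 listed genes of the pump and its regulators, 5 were tested, 3 of them in both strains alone. Over these 3, 1 was lower (Atp1b1) and 0 higher in C57BL/6J control cones, with a median log2 difference of 0.09, where 9.52% of all genes were lower and 8.03% higher. Fxyd7, a neuronal regulator of the pump, had 3.96 to 15.8 CPM in BALB/c control cones and 0 to 1.08 CPM in C57BL/6J control cones, on 7 to 49 pairs per library against 0 to 3. It passed the filter on low counts through BALB/c, where it is high, and not in the fit of C57BL/6J alone, so its log2 difference of -4.002 (adjusted p = 0.000181) is a description that rests on these few pairs. Fxyd7 and the ganglion cell markers were both lower in C57BL/6J, and with the ganglion share as a covariate its difference was -0.11 in control (adjusted p = 0.979) and -0.09 in Txnip cones (adjusted p = 0.991).

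Of the 10 listed inner segment channels, 6 were tested, 4 of them in both strains alone. Over these 4, the median log2 difference was -0.43 in control cones, with 1 higher and 2 lower, against the same shares of all genes. Besides Kcnv2, Kcnma1, the calcium-activated potassium channel, was lower, with a log2 difference of -0.81 ± 0.18 (SE, adjusted p = 0.00349), with 194 to 232 CPM in BALB/c and 90.4 to 136 CPM in C57BL/6J control cones, and of -0.70 with the ganglion share as a covariate (adjusted p = 0.533). Kcnj14, an inward rectifier, was higher by 1.87 ± 0.60 (adjusted p = 0.0350), on 99.4 CPM in C57BL/6J control replicate 1 against 6.09 and 19.96 CPM in the other 2, and by 0.20 (adjusted p = 0.812) without the 2 rod-rich libraries.

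Between control cones, the cone subunits of the cyclic nucleotide gated channel did not pass, and the rod subunits did. Cnga3 and Cngb3, its cone subunits, differed by 0.18 ± 0.16 and 0.11 ± 0.17 (SE, adjusted p = 0.478 and 0.719). Cnga1 and Cngb1, its rod subunits, were higher in C57BL/6J control cones by 2.16 ± 0.64 and 1.59 ± 0.55 (adjusted p = 0.0230 and 0.0498). Those levels came from replicate 1, with 178 CPM of Cnga1 against 10.02 and 18.6 CPM in the other 2 libraries, and without the 2 rod-rich libraries the differences were -0.10 and -0.06. Cngb1 passed in 5 of 18 fits that left out 1 library. In Txnip cones 0 of the 4 subunits passed between the strains, where 17.6% of all genes did, and their median log2 difference was 0.78.

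The plasma membrane calcium pumps Atp2b1, Atp2b2 and Atp2b4 were lower in C57BL/6J control cones. Of 10 listed calcium pump and synaptic calcium channel genes, 8 were tested in both strains alone. Over these 8, 3 were lower and 1 was higher, with a median log2 difference of 0.15, where 9.52% of all genes were lower and 8.03% higher. In Txnip cones Atp2b2 passed, and Atp2b1, Atp2b3 and Atp2b4 did not (-0.44, -1.84 and -0.58, adjusted p = 0.138, 0.0889 and 0.352). Atp2b1, the main plasma membrane calcium pump of photoreceptors, had 246 to 331 CPM in BALB/c and 152 to 212 CPM in C57BL/6J control cones, a log2 difference of -0.72 ± 0.20 (SE, adjusted p = 0.0147). Atp2b2, Atp2b3 and Atp2b4 differed by -1.74, -2.84 and -1.504 (adjusted p = 0.0446, 0.0199 and 0.0165) and had at most 33.4 CPM in any library, and Atp2b2 passed in 5 of 18 fits that left out 1 library. Atp2b1 did not pass without C57BL/6J control replicate 1 or 3 (adjusted p = 0.0662 and 0.0669), Atp2b3 without replicate 2 or 3 (adjusted p = 0.0657 and 0.107) and Atp2b4 without replicate 3 (adjusted p = 0.110). With the ganglion share as a covariate none of the 4 passed: the differences were -0.87 for Atp2b1, 2.09 for Atp2b2, 0.82 for Atp2b3 and -0.03 for Atp2b4 (adjusted p = 0.495, 0.284, 0.895 and 0.996). Slc8a1, a sodium calcium exchanger without potassium, had at most 9.86 CPM in any library and 2 of 3 C57BL/6J control libraries at 0. Slc8a1 and Atp2b3 too passed the filter through BALB/c and not in the fit of C57BL/6J alone, so their differences are descriptions. The fitted difference of Slc8a1, -3.04 ± 0.77 (adjusted p = 0.00851), was -2.40 without C57BL/6J control replicate 3 (adjusted p = 0.0565) and -0.67 with that covariate (adjusted p = 0.912), and fits that left out 1 library gave -6.83 to -2.40. Of 9 listed exchangers, 7 were tested, with a median log2 difference of -0.04 in control cones. Cacna1f, the calcium channel of the photoreceptor synapse, was higher by 0.44 ± 0.14 in control (adjusted p = 0.0361, in 8 of 18 fits that left out 1 library) and by 0.57 ± 0.14 in Txnip cones (adjusted p = 0.00786, in 18 of 18). With the covariate it was -0.43 and -0.26 (adjusted p = 0.591 and 0.795).

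In Txnip cones, Kcnma1, Kcnj14, Atp2b2 and Cacna1f passed in the same direction as in control cones. Kcnma1 passed in 6 of 18 fits that left out 1 library, Atp2b2 in 5 and Kcnj14 in 12. Fxyd7 was lower there too, but it entered this fit through BALB/c, where it is high, so this is again a description. Kcnj14 was at 0.66 without C57BL/6J Txnip replicate 2 (adjusted p = 0.513) and at 0.67 without the 2 rod-rich libraries (adjusted p = 0.315). Kcnma1 was at -0.53 (adjusted p = 0.0453), and at -0.42 with the ganglion share as a covariate (adjusted p = 0.763). Of these genes, Kcnj14 alone passed with that covariate, at 6.49 (adjusted p = 0.00426). That fit extrapolates, as the ganglion shares of the strains did not overlap, and fits that left out 1 library gave 0.66 to 2.42 for Kcnj14. Slc24a5, a melanosomal exchanger, and Slc12a5, the potassium chloride cotransporter of neurons, passed in Txnip cones at -1.41 ± 0.28 and 0.98 ± 0.19 (SE, adjusted p = 0.00113 and 0.00101), and at -0.63 and 1.74 with that covariate (adjusted p = 0.766 and 0.057). The interactions of strain and Txnip, -1.23 for Slc24a5 and 0.60 for Slc12a5, did not pass (adjusted p = 0.906 and 1.00). These strain comparisons use separate libraries, but share strain, age and sequencing project.

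The genes whose level most resembled each member were sought over the 18 libraries, as Pearson's r of log2 CPM after the group means were taken out, among the 7376 more abundant genes. This is a description without a test, and the libraries share depth and the amount of other cells. Atp1b1 was nearest to Scn2b (r = 0.94), a beta subunit of neuronal sodium channels, and Cacng5 (0.92), and its r with Slc24a2 was -0.76. C57BL/6J control replicate 1 stood far from its group here, with 161 CPM of Atp1b1 against 11.46 and 13.9 CPM in replicates 2 and 3. For Slc24a2 it had 118 CPM against 289 and 196 CPM. These r were not computed without that library. Atp1b2 was nearest to Cpe (0.89) and Gnpda2 (0.88). Kcnv2 was nearest to Cap1 (0.94) and Atp6v0a1 (0.93), a subunit of the vacuolar proton pump. Slc24a2 was nearest to Gm32442 (0.92) and Fitm2 (0.91), and Atp1b3 to AI593442 and Rab3c (both 0.81).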

How the data were processed

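Libraries were made by a modified Smart-Seq2 protocol, and the deposited counts are the authors' output of featureCounts 1.6.2 on exons (Ensembl 94, GRCm38.p6), without strand; read pairs that overlapped several genes were counted for each, and STAR is named in the submitters' processing notes. Further deposited tables hold the authors' own comparisons (log2 fold changes and p-values) and were not used. Of 54532 genes, 123 had no symbol. Genes were filtered with filterByExpr, scaled by TMM and tested with edgeR 4.0.16 in R 4.3.3, within each strain for Txnip and in 1 fit of 4 groups for strain. An adjusted p under 0.05 was called. Levels are CPM, divided by exon length between genes. Ratios were tested with exact permutation tests (SciPy 1.17.1), and DESeq2 1.42.0 was an alternative. Some listed genes and the ratio that needs one of them are not reported here. They were left out of the counts and medians of the lists and kept in the fits, and p-values of ratios were adjusted over 12 tests, of which 8 are reported. The fits were tested on simulated data. The named genes are the 5 members and listed genes of the ion circuit that passed a test or pair with a member. Members and lists were chosen with earlier results of these data known. No 2 libraries of a group agreed within sampling noise (smallest chi-square per degree of freedom 1.91 over 36 pairs). The covariates of ganglion cell share and of rod share without Sag and Pde6g were chosen after seeing the data. Same-numbered libraries did not deviate together (correlations -0.11 to 0.10).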

Additional observations from a re-analysis of the deposited data

Results flagged for a closer look

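Atp1b3 in BALB/c control replicate 5 had 33.3 CPM, on 112 read pairs, against 19.8 to 24.2 CPM in the other 5 libraries of the group. Its gap to the nearest of them was 0.678 of the group's range, past Dixon's limit for 6 libraries. Of 14 groups tested in this way, 1 was singled out, and chance gives about 1 in 20. Without this library the Txnip effect on Atp1b3 in BALB/c stayed uncalled.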

How the results depend on the processing

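With Txnip in BALB/c, 2 genes were called, 76 with DESeq2, 1400 with all genes of at least 1 count and 0 with genes of at least 10 counts in every library (961 at an unadjusted p under 0.05). In C57BL/6J those last 2 filters gave 5 and 0 (85 unadjusted). Between the strains, the stricter filter gave 1507 genes in control and 1475 in Txnip cones. The interaction gave 186 with all genes of at least 1 count and 2 without the 2 rod-rich libraries. Atp1b2 in BALB/c was called at -0.35 only with all genes of at least 1 count (adjusted p = 0.00208 in edgeR).

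With the rod share as a covariate, the Txnip effect on Atp1b1 in C57BL/6J was 0.45, the control strain difference of Atp1b3 -0.0725 and the interaction of Atp1b1 0.24. With the rod share without Sag and Pde6g, the Txnip effect on Atp1b1 was -0.0066 in BALB/c and became 0.53 in C57BL/6J, Atp1b3 -0.12 between control cones and the interaction of Atp1b1 0.53. Without the 2 rod-rich libraries, the Txnip effects in C57BL/6J were 1.73 for Atp1b1, 0.014 for Atp1b2, -0.042 for Kcnv2, -0.0726 for Slc24a2 and -0.99 points for the Atp1b2 share. Control strain differences were then -0.28 for Atp1b3, -0.096 for Cnga1 and -0.0605 for Cngb1, and interactions 1.64 for Atp1b1 and -0.19 for Slc24a2. With raw counts, the Slc24a2 share differed by 1.23 points with Txnip in C57BL/6J and by -2.60 between control cones.

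With the ganglion cell share as a covariate, 295 genes were called between control and 235 between Txnip cones. In control cones Atp1b1 was 1.63, Slc24a2 -0.36, Atp2b2 2.09, Atp2b3 0.82, Cacna1f -0.43 and Nme7 0.57. In Txnip cones Atp1b1 was 1.605, Atp1b3 1.11, Slc24a2 -0.23, Atp2b2 2.66 and Cacna1f -0.26. The shares of the strains do not overlap, so these values extrapolate, and the cause was not tested.

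The replicate numbers did not pair the libraries. With the replicate block, 1645 genes were called between control cones, the Txnip effect on Atp1b1 in C57BL/6J was 0.42 and its interaction 0.21, and Kcnv2 was -0.52 between control cones (adjusted p = 0.0576 in edgeR).

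Leaving out 1 library at a time gave 2 to 258 genes for Txnip in BALB/c, 1605 to 2930 between control cones, 1848 to 2875 between Txnip cones and 0 to 1 for the interaction. The Txnip effects in C57BL/6J ranged from -1.07 to 1.72 for Atp1b1, -0.66 to 0.16 for Atp1b3, -0.019 to 0.39 for Kcnv2 and -0.10 to 0.53 for Slc24a2. Control strain differences ranged from -0.0013 to 0.17 for Atp1b2, -0.28 to 0.51 for Atp1b3, -0.0932 to 2.66 for Cnga1 and -0.0592 to 2.02 for Cngb1. Interactions ranged from -1.16 to 1.62 for Atp1b1 and -0.24 to 0.39 for Slc24a2. The Atp1b2 share in C57BL/6J ranged from -1.38 to 1.68 points with Txnip. The Slc24a2 share ranged from -19.3 to 15.5 points with Txnip in C57BL/6J, from -10.2 to 21.6 between control cones and from -3.98 to 21.7 between Txnip cones. Of 1343 values recomputed, 1152 kept their direction and call or stayed within the limits set for them, 119 lost the call, 54 changed direction, 17 moved and 1 gained a call.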
